A study of Mus musculus with 2 samples.

Results

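The genes of ECM-receptor interaction encode the proteins of the extracellular matrix (ECM) and the cell surface receptors that hold cells to it. They were taken as every gene that the authors' annotation assigns to the KEGG pathway of that name (mmu04512), which gave 82 of 34745 listed genes. Grouped by gene name, they are 18 collagens, 10 laminins, 19 other matrix proteins, 20 integrins and 15 other receptors. RNA-seq was performed on the liver of male mice at day 3 after 2/3 partial hepatectomy (PH), the removal of a large part of the liver, after which the remnant grows back. The mice were 8 to 10 weeks old and were either miR-182-5p knockout mice (miRNA-182 KO), which carry the deletion on a single allele, or wild-type (WT) mice. Each genotype had 1 library of poly(A) RNA, and how many mice went into a library is not stated in the sources used here.

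In the matrix, collagens form fibrils and networks that carry tension, whereas laminins assemble from an α, a β and a γ chain into the sheets of basement membranes. Integrins, dimers of an α and a β chain, bind these proteins and link them to the actin cytoskeleton, while syndecans and dystroglycan act as further receptors. In liver, hepatocytes secrete plasma matrix proteins such as vitronectin and fibronectin, hepatic stellate cells (HSCs) deposit much of the collagen and laminin, and the sinusoid lacks a continuous basement membrane. Beside this pathway, the authors' annotation places 64 of the 82 genes in PI3K-Akt signaling and 64 in focal adhesion.

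The miRNA that was reduced, miR-182-5p, is encoded on chromosome 6 (GRCm38.p6, chr6:30165962-30165986, minus strand). Its mature sequence from RefSeq is shown because its seed, in capitals, is the stretch that pairs with targets.
miR-182-5p: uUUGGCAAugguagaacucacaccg
The match to the seed, TTGCCAA, was sought in the longest annotated 3′ UTR of each gene. Of the 57 ECM-receptor genes with enough counts to test, all 57 had such a UTR and 7 held the 7-base match (12.3%), against 13.4% of 12541 genes tested. The 8-base match, TTGCCAAA, was in 2 of them (3.51%), against 5.50%. The stretches around the matches of the 7 genes are shown in the sense of the mRNA, with the match in capitals.
*Col4a4*: ttattgcgtcacttTTGCCAAgatgccca
*Thbs1*: ccagttttgactctTTGCCAAtacccttt
*Dag1*: ctcagtttcctcatTTGCCAAggtagggt
*Cd47*: aatacctgcaatctTTGCCAAgatacttt
*Itga1*: atggcagccattggTTGCCAAggactgtg
*Gp1bb*: tgtaccacccgactTTGCCAAAttctagaa
*Thbs2*, first site: tgcaaaagctgcttTTGCCAAAtttggtaa
*Thbs2*, second site: ttgtttttttttttTTGCCAAAgattgtaa
Of these 7 genes, *Col4a4* and *Thbs1* were higher in the KO library, *Dag1* was lower, and the other 4 passed no criterion, with log2 fold changes from −0.87 for *Thbs2* to 0.81 for *Gp1bb*. A match is a description of sequence and not a measured site.

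The libraries summed to 13247497 counts (KO) and 13163348 counts (WT). Mitochondrially encoded mRNAs (13 genes) made up 51.7% of the KO and 31.0% of the WT counts, so libraries were scaled by TMM, a method that limits the weight of the most abundant genes. Changes are log2 fold changes of TMM-scaled counts, KO over WT, and a gene was called higher or lower at a fold of at least 2 together with an adjusted p under 0.05 in a two-sided exact binomial test. That test compares the reads of these 2 libraries and not the genotypes, and intervals are 95% and cover counting error only, since there are no replicates. Scaling by total counts instead moved the median of all genes from 0.00 to −0.60, so directions below are relative to the bulk of genes. *Mir182* was not analysed here, and the genotype labels were therefore not checked on its level. Of the labelled tissue, the hepatocyte markers were abundant in both libraries, led by *Alb*, albumin, with 339876 and 536544 counts, and none of the 7 was called.

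Of the 82 genes, 57 had at least 10 counts over both libraries and were tested, 9 had 1 to 9 counts and 16 had none. In KO liver, 13 of the tested genes were called higher and 9 lower, 22 in all or 38.6%. The background over 13561 genes tested was 16.3% called, 7.97% higher and 8.32% lower. Calls were more common among genes with few counts, and the share was therefore also taken by count. Among genes with at least 100 counts, 11 of 35 ECM-receptor genes were called (31.4%) against 10.9% of all such genes, and with 10 to 99 counts 11 of 22 were called against 28.2%. The median of the 57 was 0.00, beside 0.00 for all genes.

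**Figure D1:**
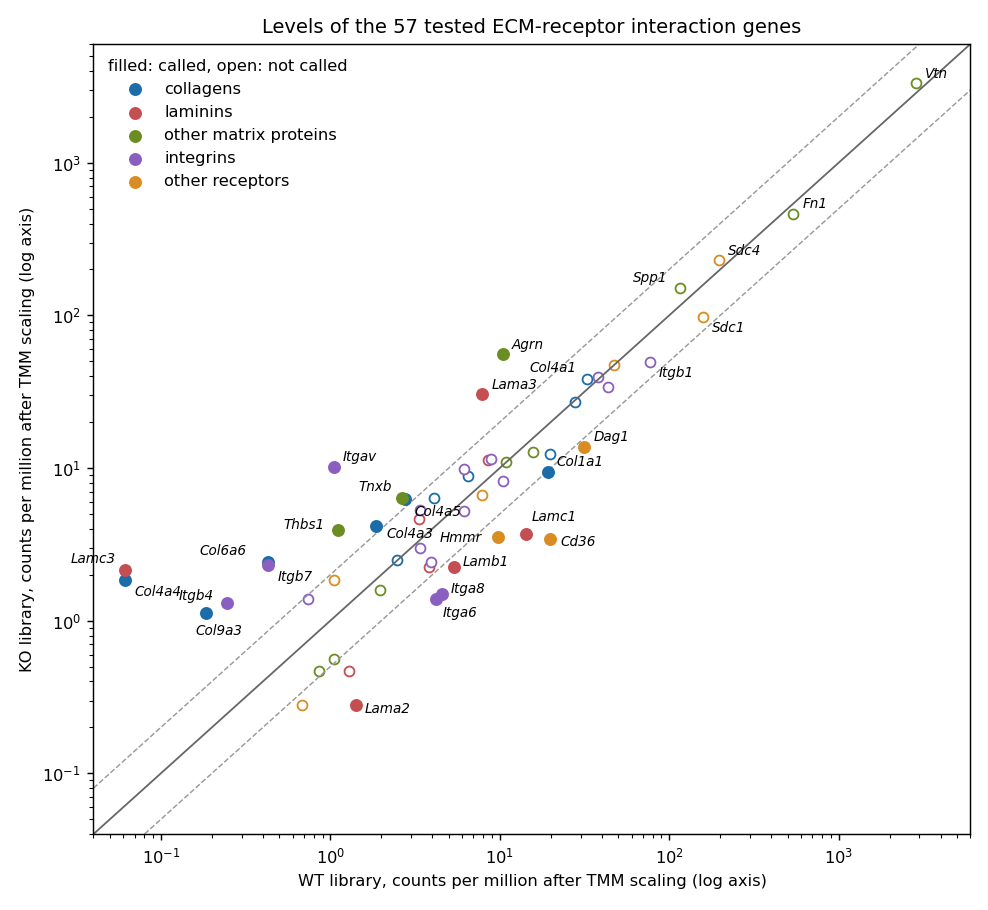
Level of each of the 57 tested ECM-receptor interaction genes in the WT library (x axis) and the KO library (y axis), in TMM-scaled CPM (counts divided by the scaled library size) on log axes, colored by group. Filled points were called, the solid line marks equal levels and the dashed lines a fold of 2; the called genes lie at low to middle levels, from *Lamc3* and *Col4a4* far above the line to *Cd36* and *Lamc1* below it, while *Vtn* and *Fn1* lie near it.

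These counts changed with the scaling and with the noise that the test allowed for. Scaled by total counts, 9 were higher (background 3.47%) and 16 lower (background 25.0%). All 9 lower calls were kept, 7 genes were added to them (*Col1a2*, *Itga10*, *Itgb1*, *Lama1*, *Lama4*, *Sdc1* and *Thbs2*), and *Col4a3*, *Col4a5*, *Col9a3* and *Tnxb* were no longer called higher. Small positive changes turned negative under total counts for *Vtn*, *Spp1*, *Sdc4*, *Cd47*, *Col4a1*, *Col6a2*, *Col6a3*, *Lama5*, *Lamb2*, *Itga5* and *Itga7*. With the authors' FPKM, which are also scaled by total counts, 6 were higher (background 2.68%) and 13 lower (background 21.3%), and with a minimum of 50 counts 7 were higher (background 5.88%) and 8 lower (background 7.02%). edgeR's exact test was also run with an assumed variation between animals, as 1 library a genotype gives no estimate of it. At a coefficient of variation of 0.2 it called 11 of the 57 against a background of 6.87%, 8 of them higher (*Agrn*, *Col4a4*, *Col6a6*, *Itgav*, *Itgb7*, *Lama3*, *Lamc3* and *Thbs1*) and 3 lower (*Cd36*, *Hmmr* and *Lamc1*). At 0.4 it called 0, against a background of 0.863%, and 9 of the 57 had an unadjusted p under 0.05.

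Laminin chains were called in both directions. Of 9 tested, 2 were higher and 3 lower (55.6% called). *Lama3*, the α3 chain found in epithelial laminins, had 327 counts in KO and 128 in WT liver, and changed by 1.94 (1.65 to 2.25, adjusted p = 1.11e-41, exact binomial test). *Lamc1*, the γ1 chain shared by most laminin trimers, had 40 and 233 counts, a change of −1.94 (−2.47 to −1.46, adjusted p = 1.80e-18). The most abundant laminin chain by counts per length was *Lamc1* in the WT library, at 1.73 FPKM (counts per length and per library total, as deposited), and *Lama3* in the KO library, at 2.30 FPKM.

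*Lamb1*, the β1 chain that pairs with γ1, had 24 counts in KO and 87 in WT liver and changed by −1.25. *Lama2*, the α2 chain typical of muscle and mesenchymal cells, had 3 and 23 counts, a ratio of 0.197 (0.0378 to 0.651). Both were called lower, as was the γ1 chain with which they form laminin-211. The call of *Lama2* was lost with FPKM (−0.80), and its counts are under the minimum of 50. *Lama1* (24 and 62 counts, −0.77) and *Lama4* (5 and 21 counts, −1.41), the α chains that join β1 and γ1 in laminin-111 and laminin-411, did not pass. The other γ chain called, *Lamc3*, went the opposite way, with 23 counts in the KO and 1 in the WT library, a ratio of 34.7 (5.63 to 1428). *Lama5* (122 and 138 counts, 0.41) and *Lamb2* (50 and 54 counts, 0.48) lay above 0 without a call. *Lamb3*, the β3 chain of epithelial laminins, carries no pathway in the annotation and is therefore outside the 82 genes, and it had 20 and 21 counts (0.51, −0.44 to 1.48).

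Shares of the laminin counts within each library do not depend on the scaling. *Lama3* took 52.8% (48.8% to 56.8%, exact Clopper-Pearson) of the laminin counts in the KO and 17.0% (14.4% to 19.9%) in the WT library, whereas *Lamc1* took 6.46% (4.66% to 8.70%) and 31.0% (27.7% to 34.5%). The shares of *Lama5* were 19.7% (16.6% to 23.1%) and 18.4% (15.7% to 21.3%), with overlapping intervals. The FPKM ratio of *Lama3* to *Lamc1* was 7.77 in the KO and 0.522 in the WT library, and the log2 difference of 3.89 (3.31 to 4.50) is free of scaling as well. *Lamb1* and *Lamc1*, which assemble together, differed in their changes by 0.68 (−0.20 to 1.54), an interval that includes 0. The group's median was −0.77, and −0.18 over the 6 chains with at least 50 counts, while its summed counts, 619 and 751 before scaling, changed by 0.31 (0.16 to 0.47) after TMM, opposite in sign. *Lama3* alone holds most of the KO counts in that sum.

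**Figure D2:**
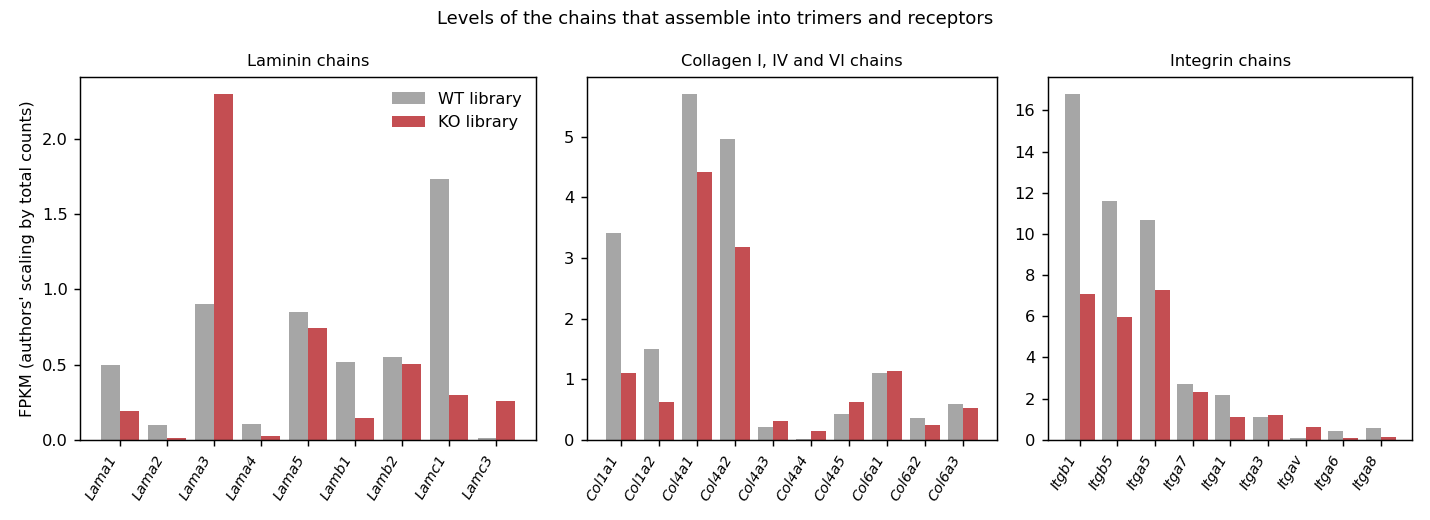
FPKM (y axis, linear) of laminin chains, of collagen I, IV and VI chains and of integrin chains (x axes) in the WT library (grey bars) and the KO library (red bars), 1 library each and therefore without error bars. The reader should see *Lama3* high and *Lamc1* low in the KO library, collagen I chains low beside modest differences for collagen VI, and *Itgb1* and *Itgb5* far above every α chain except *Itga5*. FPKM are scaled by total counts, which lowers the KO bars relative to TMM. The median change of all tested genes is −0.54 with FPKM plus 0.1, and *Col4a1* looks lower although its TMM change is 0.24.

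Of 12 collagens tested, 5 were higher and 1 was lower, with a median of 0.54 (−0.060 under total counts). These 6 calls among 12 genes are read beside 16.3% called among all genes. Of the higher collagens, *Col4a3*, *Col4a4*, *Col6a6* and *Col9a3* had 10 to 99 counts over both libraries, a range in which 28.2% of all genes were called. With at least 50 counts, 9 collagens remained, with a median of 0.24, and *Col4a3* and *Col4a5* were the higher calls. The lower one was *Col1a1*, the main chain of fibrillar collagen I, with 102 counts in the KO and 312 in the WT library, a change of −1.02 (−1.36 to −0.69, adjusted p = 7.77e-10, exact binomial test), just past the 2-fold criterion. Its partner *Col1a2* had 133 and 319 counts and changed by −0.67 (−0.97 to −0.37), short of the criterion. The changes of these chains differed by −0.35 (−0.80 to 0.10), an interval that includes 0. In FPKM, *Col1a1* stood at 1.11 and 3.42 and *Col1a2* at 0.619 and 1.495.

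Basement membrane collagen IV is made as separate networks. The α1 and α2 chains of its common network, *Col4a1* with 413 and 529 counts and *Col4a2* with 290 and 449 counts, changed by 0.24 and −0.04 and were not called. All chains of the network found in kidney and lung were called higher. They were *Col4a3* (45 and 30 counts, 1.16), *Col4a5* (67 and 45 counts, 1.16) and *Col4a4* (20 counts and 1 count, a ratio of 30.2 with an interval of 4.82 to 1250). Their levels were low beside the common network, at 0.139 to 0.621 FPKM in the KO library against 4.42 FPKM for *Col4a1*. *Col4a3* and *Col4a5* were called under TMM but not under total counts, where they changed by 0.57 and 0.56. *Col4a6* had no counts.

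Collagen IV genes lie in head-to-head pairs, and the stretches where transcription starts are shown because a pair shares each of them. Each covers 250 bases before to 50 bases after the start in RefSeq (GRCm38.p6), on the strand of the gene named. *Col4a3* starts 72 bases from *Col4a4* on chromosome 1, so its start falls inside the *Col4a4* window. *Col4a2* starts 21 bases inside *Col4a1* on chromosome 8, so that 22 exonic bases are annotated to both on opposite strands. Capitals mark matches on either strand to the CCAAT box (CCAAT), the TATA box (TATAAA), the GC box (GGGCGG), an AP-1 site (TGANTCA) or the seed match TTGCCAA, which do not overlap here.
*Col4a4* promoter, chr1:82586800-82587099, minus strand: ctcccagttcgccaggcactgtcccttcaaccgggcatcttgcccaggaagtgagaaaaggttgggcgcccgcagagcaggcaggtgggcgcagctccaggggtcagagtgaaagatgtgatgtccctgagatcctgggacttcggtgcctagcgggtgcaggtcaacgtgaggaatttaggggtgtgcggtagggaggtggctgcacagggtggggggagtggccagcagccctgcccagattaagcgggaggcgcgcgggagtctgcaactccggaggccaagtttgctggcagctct
*Col4a1* promoter, chr8:11312777-11313076, minus strand: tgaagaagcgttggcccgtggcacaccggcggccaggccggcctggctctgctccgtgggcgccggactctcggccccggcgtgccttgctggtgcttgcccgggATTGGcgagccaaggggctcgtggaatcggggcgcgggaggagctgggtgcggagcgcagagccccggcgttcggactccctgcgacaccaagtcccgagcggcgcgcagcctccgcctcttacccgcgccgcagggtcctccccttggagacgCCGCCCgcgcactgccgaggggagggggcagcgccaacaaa
The *Col4a1* window, where the pair that was not called starts, held a CCAAT box and a GC box on the minus strand of the printed sequence. None of the listed motifs was found in the *Col4a4* window, where the pair called higher starts. A RefSeq promoter was at hand for 64 of the 82 genes, in 77 windows. The GC box was in 58.4% of these against 35.7% of 32851 windows of the same length, the CCAAT box in 26.0% against 37.4%, the TATA box in 11.7% against 13.6%, and the AP-1 site in 6.49% against 7.81%. The seed match of miR-182-5p was in 3 of the 77, those of *Col1a2*, *Col6a5* and *Lama2* (3.90%, against 3.80% of all windows).

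Collagen VI, which forms beaded filaments beside cells, was not called in its common chains. *Col6a1* had 68 and 66 counts (0.63), *Col6a2* 27 and 40 (0.02) and *Col6a3* 95 and 105 (0.45). The less common chain *Col6a6* was higher, with 26 counts in the KO and 7 in the WT library (2.39, 1.24 to 3.93). *Col9a3*, a chain of the cartilage collagen IX, was also higher at 12 and 3 counts, a ratio of 6.03 (1.63 to 33.3), and its partners *Col9a1* and *Col9a2* had 1 count between them in the KO library and none in the WT library. *Col2a1* had 2 counts and *Col6a5* 6 over both libraries, and neither was tested.

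**Figure D3:**
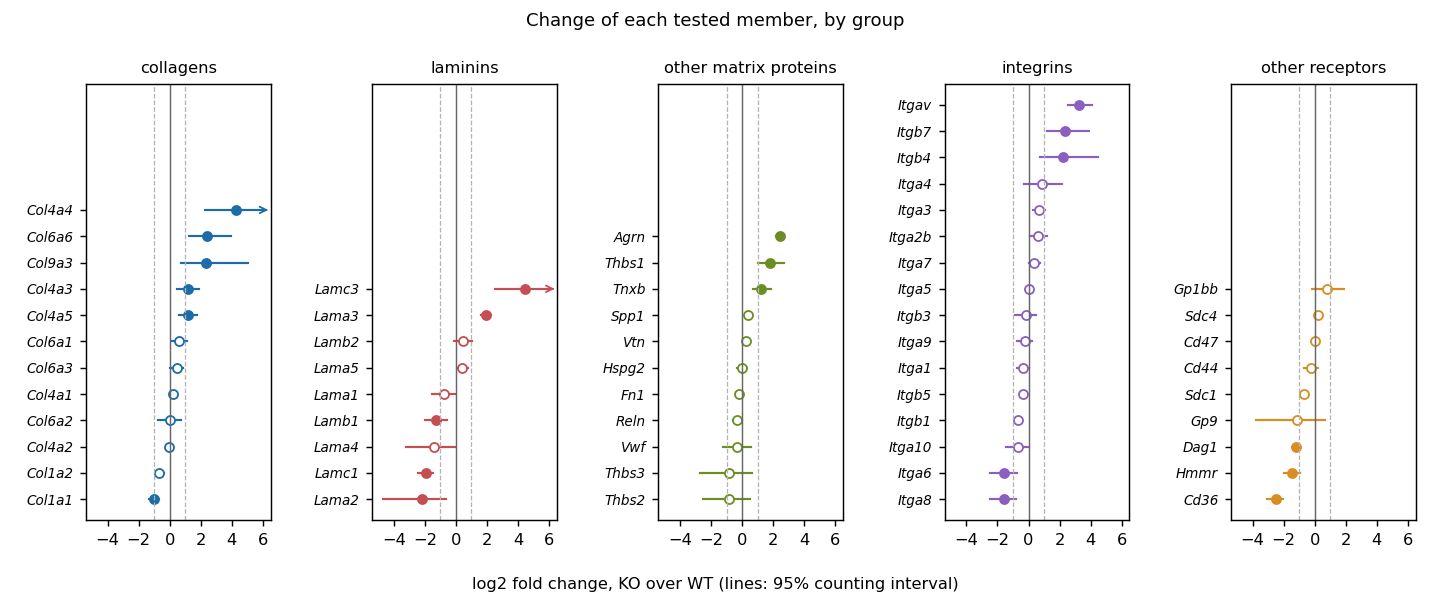
Log2 fold change, KO over WT after TMM scaling (x axes), of each tested gene (rows) in the 5 groups, with 95% counting intervals as lines and dashed lines at a fold of 2. Filled points were called; arrows mark intervals of *Col4a4* and *Lamc3* that run past the axis, and the other receptors are the group without a higher call while the other matrix proteins lack a lower call.

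Among the other matrix proteins, 3 of 11 tested were higher and none was lower (27.3% called). *Agrn*, agrin, a heparan sulfate proteoglycan of basement membranes that binds laminin and dystroglycan, had 597 counts in the KO and 169 in the WT library. Its change was 2.41 (2.16 to 2.67, adjusted p = 3.01e-100, exact binomial test), and its FPKM went from 0.914 in the WT to 3.21 in the KO library. *Thbs1*, thrombospondin-1, which binds cells and activates latent TGFβ, had 42 and 18 counts (1.78, 0.99 to 2.70). *Tnxb*, tenascin-X, had 68 and 43 counts (1.24, 0.68 to 1.84). Of the 51-base words in its transcript, 6.13% also occur in *Tnxa*, so some of its reads cannot be assigned with certainty.

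The plasma matrix proteins held most of the counts. *Vtn*, vitronectin, had 35689 counts in the KO and 46237 in the WT library, 69.2% and 64.8% of all counts on the 82 genes, and *Fn1*, fibronectin, had 5000 and 8768. Their changes of 0.22 (0.20 to 0.24) and −0.22 (−0.27 to −0.17) were small and of opposite sign after TMM, and the difference between them was −0.44 (−0.49 to −0.38). *Spp1*, osteopontin, a secreted ligand of integrins and a marker of bile duct cells, had 1638 and 1875 counts (0.40, 0.30 to 0.49). *Hspg2*, perlecan, the other large proteoglycan of the basement membrane, changed by 0.00 at 117 and 177 counts, unlike *Agrn*. *Reln*, which HSCs express, had 137 and 256 counts (−0.31). The remaining thrombospondins tested, *Thbs2* (6 and 17 counts) and *Thbs3* (5 and 14), and *Vwf*, the von Willebrand factor of endothelium and platelets (17 and 32), were not called. *Tnc*, tenascin-C, had 2 and 4 counts and *Tnr* 0 and 5, and *Chad*, *Comp*, *Ibsp*, *Npnt*, *Thbs4* and *Tnn* had none in either library, which allows up to 3 counts in each.

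Integrins were called in both directions, 3 higher and 2 lower of 16 tested (31.3%), with a median of −0.07. *Itgav*, the αv chain that recognizes vitronectin, fibronectin and osteopontin, had 110 counts in the KO and 17 in the WT library. That was the largest change among ECM-receptor genes with at least 100 counts, at 3.24 (2.54 to 4.12, adjusted p = 2.77e-26, exact binomial test). None of the β chains that pair with αv was called. *Itgb5* had 364 and 703 counts (−0.36), *Itgb3* 32 and 55 (−0.19) and *Itgb1* 529 and 1249 (−0.65), while *Itgb6* had none and *Itgb8* had 1 and 3 counts. In FPKM, *Itgav* was 0.602 and 0.0936 beside 5.97 and 11.6 for *Itgb5*, so the ratio of *Itgav* to *Itgb5* was 0.101 in the KO and 0.00807 in the WT library (log2 difference 3.64, 2.87 to 4.49).

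*Itgb1*, the β1 chain common to most matrix integrins, was the most abundant integrin chain in the WT library at 16.8 FPKM, and stood at 7.06 FPKM in the KO library. Its TMM-scaled change of −0.65 (−0.80 to −0.50) was short of the criterion. In the KO library *Itga5*, the fibronectin receptor chain, reached a similar level of 7.29 FPKM. *Itga5* had 423 and 616 counts (0.05), and its change exceeded that of *Itgb1* by 0.70 (0.46 to 0.93). The other abundant β1 partners were *Itga7*, a laminin receptor chain (124 and 144 counts, 0.38), *Itga3*, likewise a laminin receptor chain (106 and 100 counts, 0.67), and *Itga1*, a collagen receptor chain (89 and 170 counts, −0.34).

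The lower integrins were both α chains that pair with β1. *Itga6*, a laminin receptor chain, had 15 counts in the KO and 68 in the WT library (−1.56, −2.50 to −0.77), and *Itga8*, which binds fibronectin and nephronectin, had 16 and 74 (−1.59, −2.50 to −0.82). *Itgb4*, which pairs with *Itga6* alone in hemidesmosomes, went the other way, with 14 and 4 counts (2.24, 0.73 to 4.46). *Itgb7*, a leukocyte chain, was higher with 25 and 7 counts (2.33, 1.18 to 3.88). Its partner *Itga4* had 15 and 12 counts (0.88) and was not called. *Itga9* (56 and 100 counts, −0.24) and *Itga10* (26 and 64 counts, −0.70) were not called either, and 32.0% of the 51-base words of *Itga10* also occur in the overlapping gene *Gm42957*, with 19 and 0 counts. Of the words of *Itga6*, 6.48% occur in other genes, most often *Gm29397*, and of those of *Itgb5* 8.14%, most often *Gm38317*. Some reads of these chains therefore cannot be assigned with certainty. Integrin chains outside the pathway are those of leukocytes. Of 4 tested, 1 was called (25.0%, against 16.3% of all genes and 28.2% of genes with 10 to 99 counts). The called chain was *Itgax*, the CD11c chain, with 23 and 8 counts (2.04), while *Itgal* had 116 and 94 (0.89). The collagen receptor chains *Itga2* and *Itga11* had no counts.

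The other receptors held no higher call and 3 lower calls among 9 tested (33.3%). *Cd36*, a scavenger receptor that binds thrombospondin and takes up fatty acids, had 37 counts in the KO and 320 in the WT library (−2.51, −3.05 to −2.03, adjusted p = 5.05e-34, exact binomial test). *Dag1*, dystroglycan, the receptor of laminin and agrin, had 148 and 512 counts (−1.20, −1.47 to −0.93). *Hmmr*, a hyaluronan receptor that is also found on the mitotic spindle of dividing cells, had 38 and 158 counts (−1.45, −2.01 to −0.94).

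Syndecans, proteoglycans that anchor matrix and growth factors at the hepatocyte surface, were the most abundant of these receptors. *Sdc4* had 2483 and 3186 counts (0.23, 0.16 to 0.31) and *Sdc1* 1045 and 2552 (−0.70, −0.80 to −0.59). *Sdc4* therefore made up 57.0% of the counts on the other receptors in the KO and 41.6% in the WT library, and *Sdc1* 24.0% and 33.4%. *Cd47*, the thrombospondin receptor that signals to macrophages, had 508 and 765 counts (0.00). *Cd44*, the main hyaluronan receptor, had 72 and 128 (−0.24). Of the platelet receptor GPIb-IX-V, *Gp1ba* had no counts and *Gp9* had 3 and 11, and *Gp1bb*, with 20 and 17 counts, shares 92.8% of its 51-base words with *Sept5* and is uncertain. *Gp5* had 0 and 1 counts, *Sv2a* 3 and 0, and *Gp6*, *Sv2b* and *Sv2c* none.

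Other matrix genes gave the context. Of 113 tested focal adhesion genes outside the pathway, 6 were higher and 9 lower (13.3%). Of 15 tested collagen chains outside the pathway, only *Col27a1* was called (6.67%), with 251 and 136 counts (1.47). The most abundant of those collagens was *Col18a1*, the source of endostatin, with 3185 and 6330 counts (−0.40). In basement membrane genes outside the pathway, 1 of 12 tested was higher and 2 were lower (25.0% called, against 16.3% of all genes). *Nid1*, nidogen-1, which binds the γ1 chain of laminin and links it to collagen IV, had 85 and 418 counts (−1.70, adjusted p = 2.20e-27, exact binomial test), and *Fras1* had 56 and 21 (1.98). Collagen processing enzymes had 1 higher call, the cross-linking enzyme *Lox* (18 and 8 counts, 1.69), and 1 lower, *Adamts14* (13 and 41, −1.04), of 22 tested (9.09% called).

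The shares called in further lists are read beside the 16.3% of all genes. Among 14 matrix metalloproteinases and ADAMTS proteases tested (14.3% called), *Mmp13* was higher with 12 counts in the KO and 0 in the WT library, and *Mmp2* lower with 12 and 39 (−1.08). Of 7 protease inhibitors (28.6%), *Timp1* was higher (12 and 3 counts) and *Timp2* lower (19 and 60, −1.05). Of 25 integrin activators and adaptors (8.0%), *Flna*, filamin A, was higher (322 and 229, 1.08) and *Parvg* lower (3 and 20). Of 14 elastic fibre genes (7.14%), *Ltbp2* was higher (35 and 21, 1.30). No call was made among 7 small leucine-rich proteoglycans, led by *Dcn*, decorin, with 504 and 1087 counts (−0.52). Of these 7, 5 lay below 0 and 2 above it, and their summed counts changed by −0.53 (−0.64 to −0.42). In focal adhesion the largest calls were *Ppp1cc* (79 and 7 counts, 3.98) and *Pik3ca* (29 and 317, −2.84), a phosphatase and a PI3-kinase subunit.

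In bulk liver, fewer cells of a type and less RNA per cell cannot be told apart, and the markers of the cells that make these genes are therefore given. Of 9 HSC markers, 7 lay below 0 and 2 were called lower, *Hgf* (5 and 32 counts, −2.002) and *Ngfr* (4 and 24, −1.89), with a median of −0.66. The call of *Hgf* rests on few counts in a single library of each genotype. It differs from the paper, which reports no significant effect of the deficiency on *Hgf* mRNA by qRT-PCR in replicated livers after PH. The summed counts of the 9 markers changed by −0.27 (−0.38 to −0.16), led by *Ecm1* (595 and 885, 0.02). Of the others not called, *Bmp5* (23 and 26, 0.41) lay above 0. *Lrat*, *Colec11*, *Rgs5*, *Reln* and *Des* lay below it, at −0.89, −0.77, −0.66, −0.31 and −0.21. Among 6 markers of activated HSCs and myofibroblasts, *Acta2* was lower (25 and 77, −1.02) while *Timp1* (12 and 3) and *Lox* (18 and 8) were higher. *Myl9* (42 and 90, −0.50), *Tagln* (75 and 129, −0.19) and *Pdgfrb* (65 and 96, 0.03) were not called. The summed counts of these 6 changed by −0.17 (−0.41 to 0.06). *Reln* belongs both to the HSC list and to the ECM-receptor genes.

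All 7 markers of Kupffer cells and macrophages lay below 0 (median −0.31), with *Marco* (139 and 447, −1.09) and *Adgre1* (12 and 41, −1.15) called lower (28.6%). The summed level of the 7 was 132 CPM in the KO and 175 CPM in the WT library. Of the sinusoidal and vascular endothelial lists, *Lyve1* (4 and 45, −2.78) and *Tek* (36 and 119, −1.12) were called lower, at medians of −0.12 and −0.36. Of the sinusoidal markers not called, *Stab1* (668 and 734, 0.46), *Gpr182* (112 and 125, 0.43) and *Stab2* (318 and 476, 0.01) lay above 0. *Fcgr2b* (180 and 295, −0.12), *Oit3* (68 and 142, −0.47) and *Clec4g* (138 and 323, −0.63) lay below it. The summed counts of the sinusoidal list changed by 0.07 (−0.03 to 0.16). Of the vascular markers not called, *Emcn* (16 and 20, 0.26) lay above 0. *Kdr* (80 and 172, −0.51), *Pecam1* (69 and 134, −0.36) and *Cdh5* (89 and 148, −0.14) lay below it. The vascular list's summed counts changed by −0.44 (−0.65 to −0.23). Of 5 markers of cholangiocytes, the bile duct epithelium, *Krt19* (26 and 7, 2.39) and *Krt7* (15 and 6, 1.81) were called higher (40.0%) at these low counts. *Spp1*, *Epcam* and *Sox9* stood at 0.40, 0.14 and −0.31 and were not called. *Msln*, a marker of mesothelium, the surface lining of the liver, had 17 counts in the KO and 0 in the WT library, with *Upk3b*, *Wt1* and *Lrrn4* under 10 counts. The part of these cells in the changes of laminins, collagens and integrins was not tested.

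Portal fibroblasts held no call among 6 markers (median 0.04), nor neutrophils among 2. The platelet markers *Pf4* (3 and 17 counts) and *Ppbp* (3 and 19) were lower and *Itga2b* was not called (57 and 55, 0.64), and the B cell marker *Cd79a* was higher (12 and 4 counts).

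**Figure D4:**
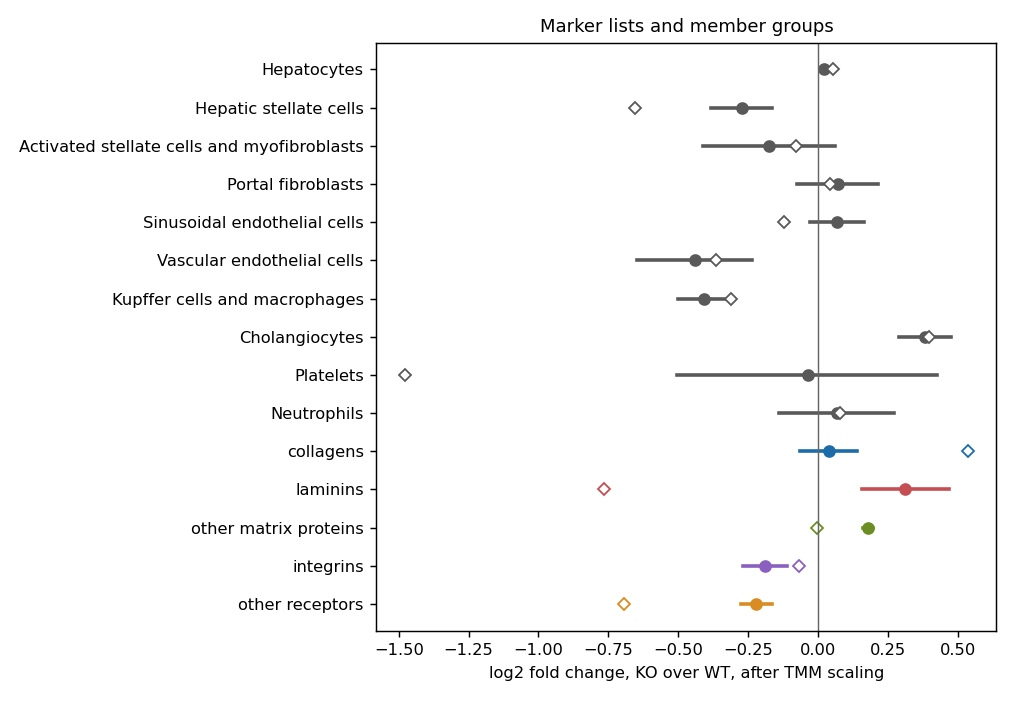
Log2 fold change, KO over WT after TMM scaling (x axis), of the summed counts (dots, with 95% counting intervals as lines) and of the median tested gene (open diamonds) for marker lists of liver cell types (grey) and the 5 groups of ECM-receptor genes (colors). Hepatocytes sit near 0, the HSC and Kupffer cell lists below it and cholangiocytes above it, although scaling by total counts moves every value by about −0.60; dot and diamond are apart for laminins, whose sum rests on *Lama3*.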

How the data were processed

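Poly(A) RNA from the liver of 1 KO and 1 WT library was analysed. The deposited values are raw counts of reads on each gene and the FPKM that the authors derived from them, scaled by the total count. The submitters' processing notes name HISAT2 2.0.4, StringTie and edgeR. They give the human build hg38, whereas the identifiers are those of mouse and 69 of the 82 genes have the coordinates of GENCODE M21 (GRCm38). Whether counting used strand is not given in the sources used here.

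The tools were edgeR 4.0.16 and DESeq2 1.42.0 (R 4.3.3) and Python 3.11.15. Factors of TMM (0.812 for KO and 1.23 for WT) were taken from the 13561 genes whose counts summed to 10 or more. Log2 fold changes used a prior count of 0.5. KO counts were tested against the scaled library sizes with a two-sided exact binomial test and Benjamini-Hochberg adjustment over all genes tested. The steps were tested on simulated data. Named genes are every called gene, the 4 genes of each group with the highest mean FPKM, and tested partner chains, and from each other list the gene with the most counts and the largest calls. Genes outside this rule, such as *Reln*, *Cd44*, *Lrat* and untested chains, were added after their values were seen. The genes, groups and lists were chosen with earlier results of these data known. Cell type lists were matched by gene name. Alternatives were scaling by total counts, by DESeq2 or by the upper quartile, FPKM plus 0.1 on the log2 scale, raising the prior count to 5, a sum of 1 or 50 counts as the minimum, an assumed variation of 0.1, 0.2 or 0.4 in the exact test of edgeR, and the 2-fold criterion alone. Sequences are from RefSeq (GRCm38.p6) and GENCODE M21 transcripts. The values of 1 member are not reported here.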

Additional observations from a re-analysis of the deposited data

How the results depend on the processing

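No paired analysis was possible because there was a single library of each genotype, and for the same reason no replicate could be left out. Under scaling by total counts, 16 genes were lower, and medians were −0.60 for all 57 genes, −0.060 for collagens, −0.60 for other matrix proteins, −0.67 for integrins and −1.30 for other receptors, which follows from the shift of all genes by −0.60. Changes that turned sign were −0.37 for *Col4a1*, −0.57 for *Col6a2*, −0.15 for *Col6a3*, −0.55 for *Itga5*, −0.22 for *Itga7*, −0.19 for *Lama5*, −0.12 for *Lamb2*, −0.20 for *Spp1*, −0.38 for *Vtn*, −0.60 for *Cd47* and −0.37 for *Sdc4*. With FPKM, 6 genes were higher, the medians were −0.53, −0.050, −0.43, −0.58 and −1.29 in the same order, and the same genes gave −0.36, −0.43, −0.13, −0.55, −0.22, −0.17, −0.10, −0.20, −0.38, −0.59 and −0.37 in the same order. A minimum of 50 counts left 7 higher, with medians of 0.24 for collagens, −0.18 for laminins, 0.31 for other matrix proteins and −0.24 for integrins. With edgeR's exact test, 8 genes were higher and 3 lower at an assumed variation of 0.2, and 0 and 0 at 0.4, where 9 had an unadjusted p under 0.05. *Cd47* was −0.0057 under DESeq2's size factors. Total counts without mitochondrial genes, chosen after seeing the data, kept all 22 calls and gave −0.061 for *Col6a2*, −0.037 for *Itga5* and −0.086 for *Cd47*. With a prior count of 5, *Col1a1* was at −0.99 and no longer called. The upper quartile, the factors of DESeq2, a minimum of 1 count and an assumed variation of 0.1 kept all 22 calls. In the genes with 10 to 99 counts, intervals span several log2 units, and depth limits what can be seen.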
